A study of Rattus norvegicus with 12 samples.

Results

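The Hox genes on the array were taken as every gene name made of Hox, a cluster letter from a to d and a number. This gave 28 genes with 31 probes, of 35287 gene names on the array, and 22 of the 28 passed the filter on dim probes, of 29623 genes in all. The tissue was dorsal root ganglia of male Sprague-Dawley rats (180 to 220 g, no genetic change and no age named in the labels), described as lumbar levels 4 to 6. In every rat a 1 cm piece of the left sciatic nerve had been cut out at mid-thigh, and the ganglia were collected 0.5, 3, 6 or 9 h later. The labels name 24 rats, with 6 for each time. Each time had 3 one-colour Agilent arrays, 12 in all. The labels do not say how rats were pooled or shared between arrays, so p-values reflect only how these samples varied, which may be technical variation. All 4 groups share the injury, the labels give no group without it, and the 0.5 h arrays served as the reference.

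Hox genes encode homeodomain transcription factors that lie in 4 clusters. Within a cluster the genes are numbered in order, and the copies of a number in different clusters, called paralogues, descend from a common ancestor gene. Low numbers are switched on towards the hindbrain and neck, middle numbers at the level of the forelimb and trunk, and high numbers in the lumbar, sacral and tail region, so that the highest paralogues switched on in a tissue reflect its level along the body axis. Expression of many Hox genes persists in adult spinal ganglia. Pbx, Meis and Pknox proteins bind DNA together with Hox proteins, and Polycomb and trithorax proteins keep the clusters silent or active.

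The measurement rests on probes of 60 bases, and 17 of the 31 Hox probes include part of the homeobox, the stretch that paralogues share. The probes are read 5′ to 3′ from the scanner files, with positions on rn4. Shown first are the posterior probes, since they bear on spinal level. Capitals mark the bases in which the 2 probes of a pair differ where they overlap. Hoxc10 lies at chr7:141734333-141734392 (plus strand) and the homeobox probe of Hoxa10 at chr4:80532877-80532936 (minus strand), and they matched at 74.6% of aligned bases. The probe named RGD1305450, an older name of Hoxc11 in the RefSeq gene table, lies at chr7:141719975-141720034 (plus strand), between Hoxc12 and Hoxc10. It matched no Hox probe at more than 45.1% of bases. Probes were compared only with each other, without gaps and over at least 45 bases, and not with whole Hox transcripts. Probes from different places in their genes match poorly in this comparison, so a low match does not show that a probe is specific. Hoxc13 lies at chr7:141691090-141691149 and Hoxd13 at chr3:57284639-57284698, both on the plus strand, and they matched at 57.6%.
Hoxc10: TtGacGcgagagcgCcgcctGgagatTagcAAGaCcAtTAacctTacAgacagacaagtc
Hoxa10: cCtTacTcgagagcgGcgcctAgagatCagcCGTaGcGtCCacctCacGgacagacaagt
Hoxc11: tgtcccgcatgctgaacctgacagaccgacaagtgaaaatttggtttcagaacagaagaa
Hoxc13: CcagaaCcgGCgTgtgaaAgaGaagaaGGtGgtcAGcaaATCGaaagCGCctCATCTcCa
Hoxd13: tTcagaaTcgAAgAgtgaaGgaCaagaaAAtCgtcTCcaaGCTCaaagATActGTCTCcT

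The next set shows the members whose probes are most alike, because a probe can also bind RNA of a near copy. Only 3 of 465 pairs of Hox probes matched at 80% of bases or more, and these were the 3 pairs among Hoxb6, Hoxb7 and Hoxc6 (82.5 to 85.0%). Matches of probes to the transcripts of other members were not measured. Capitals mark positions where the 3 are not all the same. The probes lie at chr10:85032800-85032859, chr10:85020148-85020207 and chr7:141774182-141774241, all on the plus strand.
Hoxb6: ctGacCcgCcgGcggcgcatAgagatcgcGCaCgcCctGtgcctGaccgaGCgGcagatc
Hoxb7: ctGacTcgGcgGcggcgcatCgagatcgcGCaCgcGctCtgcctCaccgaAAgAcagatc
Hoxc6: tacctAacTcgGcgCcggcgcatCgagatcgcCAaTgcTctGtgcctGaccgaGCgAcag

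The last set gives the probes of 3 members whose level differed between times. Hoxc9, at chr7:141747571-141747630, is set against its paralogue Hoxd9, at chr3:57313651-57313710, with which it matched at 74.5% of bases and from which capitals mark the differences. Hoxc4 and Hoxd4 lie at chr7:141798352-141798411 and chr3:57342114-57342173, both on the plus strand. Hoxd4 matched no other Hox probe at more than 46.8% of bases, again a comparison of probes and not of transcripts. The GC content of the 31 Hox probes ran from 38.3 to 71.7%.
Hoxc9: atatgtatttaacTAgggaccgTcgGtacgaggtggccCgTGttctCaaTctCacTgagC
Hoxd9: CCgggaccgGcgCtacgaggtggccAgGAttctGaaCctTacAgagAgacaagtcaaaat
Hoxc4: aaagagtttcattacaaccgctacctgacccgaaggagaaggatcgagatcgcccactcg
Hoxd4: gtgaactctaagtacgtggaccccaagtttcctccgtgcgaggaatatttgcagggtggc

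Array names were old for some of these genes. The accession of the member named Hoxa9 now belongs to Hoxa7, so it is treated here as a paralogue 7 gene and written Hoxa9 (now Hoxa7). The present Hoxa9 is on the array as Hoxa9l, and Hoxa3 as RGD1561431. The gene table lists Hoxa10 both as a gene and as an older name of Hoxa11, so that member is called here as the files call it. Names that did not follow the Hox pattern were not counted as members.

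Levels are log2 of the scanner's background-subtracted signal minus the 75th percentile of the same array, so that 0 is that percentile. The levels of different probes cannot be set against each other, and each gene is compared only with itself. The arrays of 0.5 h saw less: 63.2 to 67.5% of all probes were well above background on them, against 82.3 to 85.3% on the other arrays. There were 5 slides and 3 days of scanning. The 0.5 h arrays shared a slide and a day, as did those of 9 h, so for these times slide, scan day and time cannot be told apart. The 3 h and 6 h arrays were scanned on the same day but shared no slide, so between them slide and time cannot be told apart either. All 10 measured markers of sensory neurons were well above background on all 12 arrays. So were all 10 skeletal muscle markers and 60.6% of all gene names, so detection alone cannot settle the tissue.

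Detection of the Hox genes differed by paralogue number. Of the 23 genes with numbers 1 to 10, 16 were well above background on all 12 arrays, 7 on some and none on no array. Of the 5 genes with numbers 12 and 13, none was well above background on all 12 arrays, 2 on a single array and 3 on none. Over all gene names, 60.6% were well above background on all 12 arrays and 10.5% on none. A dim probe shows only that its signal did not rise clearly over background, and each of these genes had 1 probe. The array held no member with the number 11. In these bulk samples fewer cells of a type and less RNA per cell cannot be told apart.

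**Figure D1:**
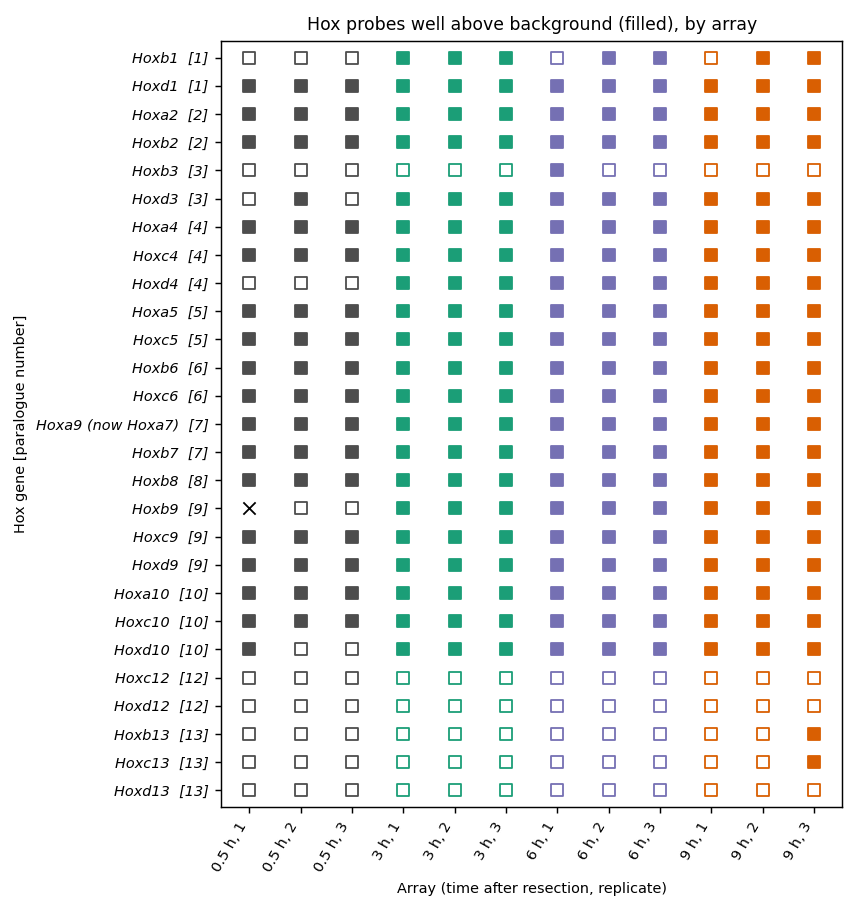
Each row is 1 of 27 Hox genes (brightest probe, paralogue number in brackets) and each column an array, coloured by hours after resection. Filled squares are well above background, open squares are not, and the cross is a spot left out as an outlier. Numbers 12 and 13 are open except for Hoxb13 and Hoxc13 on 9 h replicate 3, and 6 genes of lower number are open on at least 2 of the 0.5 h arrays.

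Among anterior genes (numbers 1 to 4), which mark the hindbrain and neck levels, 5 of 10 were well above background on all 12 arrays. These were Hoxd1, Hoxa2, Hoxb2, Hoxa4 and Hoxc4. Hoxb1 and Hoxd4 were dim on all 3 arrays of 0.5 h, and Hoxd3 on 2 of them. Hoxb3 was well above background on 6 h replicate 1 alone. Among middle genes (numbers 5 to 9), 9 of 10 were well above background on all 12 arrays, and Hoxb9 on 9, with none of them from 0.5 h. Posterior genes (numbers 10 to 13) gave 2 of 8, Hoxa10 and Hoxc10. Among genes of number 10 or lower, Hoxb3 was the one seen on as few arrays as Hoxb13 and Hoxc13.

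The dim posterior genes had levels near the bottom of the scale. Hoxc12 ranged from -9.54 to -6.49 over the 12 arrays, Hoxd12 from -9.54 to -6.54 and Hoxd13 from -9.56 to -6.74. The 0.5 h arrays gave the highest values of each, and these arrays also had the highest local background (64 to 86 units, against 37 to 45). Hoxb13 lay at -7.38, -7.15 and -5.45 on the 9 h arrays, and only the last was well above background. Hoxc13 lay at -6.92, -7.58 and -6.44 there, again with only the last well above background. So the 2 tail-level genes that reached detection did so on the same array.

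Hoxc10 and Hoxd10, which set lumbar motor neuron identity in the spinal cord, and Hoxa10, which also patterns the lumbar region, were all detected. None was called by limma in any comparison, and at an unadjusted p under 0.05 the count was 1 at 6 h against 0.5 h (Hoxc10) and 0 in the other comparisons. Hoxa10 gave 1.03, 1.06 and 1.06 at 0.5 h, 0.92, 0.94 and 1.03 at 3 h, 1.14, 1.05 and 1.00 at 6 h, and 0.96, 0.85 and 1.04 at 9 h. The 3 h arrays lay just below those of 0.5 h and the other compared times overlapped, and the widest of the 5 differences tested was 0.11 in size (limma F test over the 4 times, adjusted p = 0.309). Hoxc10 gave -1.59, -1.49 and -1.47 at 0.5 h, -1.36, -1.18 and -1.36 at 3 h, -1.41, -1.10 and -1.29 at 6 h, and -1.37, -1.55 and -1.31 at 9 h. Every 3 h and 6 h array lay above every 0.5 h array, but the differences of 0.21 (SE 0.10) and 0.25 (SE 0.10) were not called (limma adjusted p = 0.144 and 0.122). Their 95% intervals ran from -0.0026 to 0.43 and from 0.03 to 0.47.

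Hoxd10, the HoxD member of the same number, was less even. It gave -3.43, -6.47 and -6.22 at 0.5 h, where only the first was well above background, -6.74, -5.50 and -6.19 at 3 h, -5.95, -5.55 and -6.05 at 6 h, and -5.83, -5.63 and -5.80 at 9 h. Replicate 1 of 0.5 h stood far above every other array. With it, 9 h lay below 0.5 h by 0.38 on the log2 scale (a difference of -0.38, SE 0.67, limma adjusted p = 0.69). Without it the fitted difference was 0.59 (SE 0.31, limma adjusted p = 0.181), taken against 2 arrays that were not well above background. No direction can therefore be given for Hoxd10 against 0.5 h.

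The Hoxc11 probe, of a gene switched on at lumbosacral levels, was well above background on all 12 arrays and varied more than any fully detected Hox member. It is no member by name and was singled out after its values were seen. It gave -0.74, -0.86 and -1.08 at 0.5 h, -1.92, -0.51 and -1.34 at 3 h, -1.42, -0.60 and -1.43 at 6 h, and -1.56, -1.66 and -1.04 at 9 h. Its pooled SD within times was 0.468, against 0.0651 to 0.181 for the 16 fully detected members and a median of 0.111 over 21390 fully detected genes, of which 96.6% varied less. The times were not separated (limma F test, adjusted p = 0.571).

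At 3 h, 6 h and 9 h, but not at 0.5 h, the array highest for the Hoxc11 probe was also highest for 2 of the paralogue 10 genes. At both 3 h and 6 h, replicate 2 had the highest value of the Hoxc11 probe, of Hoxc10 and of Hoxd10. At 0.5 h the Hoxc11 probe was highest on replicate 1, where Hoxd10 was highest but Hoxc10 and Hoxa10 were lowest. At 9 h it was highest on replicate 3, as were Hoxc10 (-1.31) and Hoxa10 (1.04) but not Hoxd10. At 3 h and 6 h Hoxa10 did not share the pattern, with its highest values on 3 h replicate 3 and 6 h replicate 1. All 10 skeletal muscle markers were well above background on all 12 arrays. Centred on their own means, they averaged -1.50 to -0.12 at 0.5 h, -1.22 to 1.24 at 3 h, -1.05 to 2.13 at 6 h and -0.95 to 0.82 at 9 h. They stood at 1.24 on 3 h replicate 2 and 2.13 on 6 h replicate 2, but also at 1.05 on 3 h replicate 1, where the Hoxc11 probe was lowest. The 7 markers of fibroblasts and capsule, all well above background on all 12 arrays, ran from -0.18 to 0.16 at 0.5 h, -0.44 to 0.12 at 3 h, -0.19 to 0.26 at 6 h and -0.25 to 0.06 at 9 h. They were highest on replicate 2 at 3 h and 6 h (0.12 and 0.26) and lowest on 3 h replicate 1 (-0.44), where spinal cord markers stood at 0.81. Replicate 3 came close at both times (0.11 and 0.25), while the Hoxc11 probe lay at -1.34 and -1.43 there. At 9 h the fibroblast markers were highest on replicate 2 (0.06), where the Hoxc11 probe was lowest (-1.66). At 0.5 h both were highest on replicate 1. The part of these tissues, or of the levels of the ganglia taken, in these differences was not tested.

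**Figure D2:**
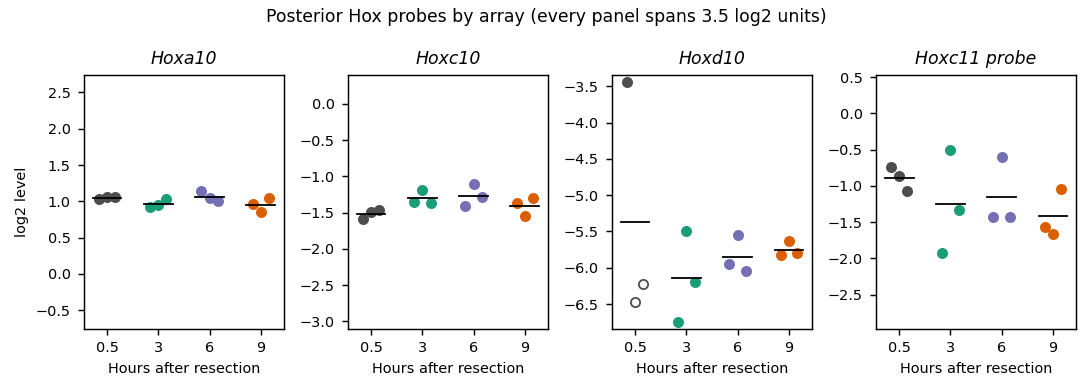
Levels (log2, relative to the array's 75th percentile) of Hoxa10, Hoxc10, Hoxd10 and the Hoxc11 probe on each array against hours after resection. Filled points are well above background, bars are group means, and each panel covers 3.5 log2 units. Hoxa10 and Hoxc10 are tight, Hoxd10 has a single high point at 0.5 h, and the Hoxc11 probe spreads within 3 h and 6 h.

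Between 0.5 and 9 h several anterior and middle Hox genes rose, and Hoxc4 fell. Of 22 tested Hox genes 6 were called higher and 1 lower at a limma adjusted p under 0.05. Over all genes 33.4% were called, 22.7% higher and 10.7% lower, so the Hox share of 31.8% was near the background. The median difference was 0.13 for the Hox genes and 0.10 for all genes. In 10 Hox genes (45.5%) the 9 h arrays lay wholly above or below those of 0.5 h, against 48.7% of all genes. When levels were set relative to the array median the median of all genes moved from 0.10 to -0.01, and 5 Hox genes were called higher and 4 lower.

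Those called higher at 9 h included Hoxd3 and Hoxd4, which were not well above background on every array, and Hoxb6, Hoxc5 and Hoxc6, which were. A gene that was dim at 0.5 h could pass the filter only through a later time, so no count is drawn from this division.

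Hoxc5, which acts in cervical and phrenic motor neurons, had the clearest course of the fully detected members. It gave -3.98, -4.18 and -4.02 at 0.5 h, -4.07, -4.12 and -3.80 at 3 h, -4.82, -4.55 and -4.71 at 6 h, and -3.38, -3.26 and -3.06 at 9 h. All 6 h arrays lay below and all 9 h arrays above every other array. Hoxc5 fell by 0.64 from 0.5 to 6 h (SE 0.12, limma adjusted p = 0.00834) and was higher by 0.82 at 9 h than at 0.5 h (SE 0.12, adjusted p = 0.00081). Between 6 and 9 h it rose by 1.46 (SE 0.12, adjusted p = 2.31e-05).

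Hoxc6, a gene of forelimb-level motor neurons, lies beside Hoxc5 in the HoxC cluster. It gave -3.24, -3.29 and -3.51 at 0.5 h, -3.20, -3.46 and -3.18 at 3 h, -3.44, -3.47 and -3.56 at 6 h, and -2.80, -2.58 and -2.50 at 9 h. The 9 h arrays stood above all others, while the earlier times overlapped. The rise was 0.72 against 0.5 h (SE 0.11, limma adjusted p = 0.00108) and 0.86 against 6 h (SE 0.11, adjusted p = 0.000259). Its close match Hoxb6 lay at -2.77, -2.79 and -2.94 at 0.5 h and at -2.37, -2.65 and -2.52 at 9 h, a difference of 0.32 (SE 0.11) at the edge of the threshold (adjusted p = 0.0497). The call ended with quantile, median and cyclic loess scaling and capped normexp, where the difference was 0.20 to 0.23 (adjusted p from 0.128 to 0.177). Hoxb7, the third of these probes, differed by -0.005 at 9 h (SE 0.09, adjusted p = 0.972), so the 3 similar probes did not move alike.

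Hoxd4 and Hoxd3, neck-level genes of the HoxD cluster, were dim at 0.5 h. Hoxd4 gave -5.93, -5.82 and -5.84 at 0.5 h, none of them well above background, -5.16, -5.45 and -5.11 at 3 h, -5.46, -5.72 and -5.69 at 6 h, and -4.46, -4.79 and -4.41 at 9 h. It was at least 1.22-fold higher at 9 h than at 0.5 h (limma adjusted p = 0.000108), a bound that takes the lowest well-above-background signal of each 0.5 h array as the dim value, while the p comes from the fit to the measured values. With 1 common detection floor of -4.71 for all arrays the difference was 0.18 and the call ended (limma adjusted p = 0.068). Where both times were detected, between 6 and 9 h, it rose by 1.07 (SE 0.12, adjusted p = 0.000165), a call that the same floor, which lies above all 6 h values, also ended (adjusted p = 0.0852). Hoxd3 gave -4.76, -4.51 and -4.94 at 0.5 h, with only the second well above background, and -4.39, -4.18 and -3.94 at 9 h. It rose by 0.57 against 0.5 h (SE 0.15, adjusted p = 0.0156) and by 0.68 against 6 h (SE 0.15, adjusted p = 0.00724). Both calls ended with quantile scaling (0.28 and 0.24, adjusted p = 0.117 and 0.202) and with cyclic loess scaling (0.11 and 0.30, adjusted p = 0.542 and 0.125), and the first also with capped normexp (0.15, adjusted p = 0.33). The 9 h arrays of both genes lay above the arrays of all earlier times.

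Hoxb1, a hindbrain gene, was uneven. It gave -6.82, -6.92 and -6.50 at 0.5 h, none well above background, -6.18, -6.42 and -5.80 at 3 h, -7.31, -6.29 and -7.17 at 6 h, and -7.15, -4.94 and -4.85 at 9 h. The last 2 values stood above all others, but 9 h replicate 1 lay below every 0.5 h array. It was not called at 9 h against 0.5 h (95% interval of the difference -0.11 to 2.31, limma adjusted p = 0.146). Hoxd1, a paralogue known from nociceptors, was well above background on all 12 arrays and differed by 0.15 (SE 0.09, adjusted p = 0.208).

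Hoxc4 ran against the other called members. It gave -2.47, -2.13 and -2.29 at 0.5 h, -2.71, -2.79 and -2.55 at 3 h, -2.11, -2.18 and -2.16 at 6 h, and -2.68, -2.74 and -2.71 at 9 h. The 3 h and 9 h arrays lay below all 0.5 h and 6 h arrays. It fell by 0.39 at 3 h and by 0.41 at 9 h against 0.5 h (SE 0.09 for each, limma adjusted p = 0.0133 and 0.00719), rose by 0.54 from 3 to 6 h (SE 0.09, adjusted p = 0.00465) and fell by 0.56 from 6 to 9 h (SE 0.09, adjusted p = 0.00125). Hoxa4, its paralogue, stayed between -0.22 and 0.11 on all arrays and was not called (F test, adjusted p = 0.128).

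**Figure D3:**
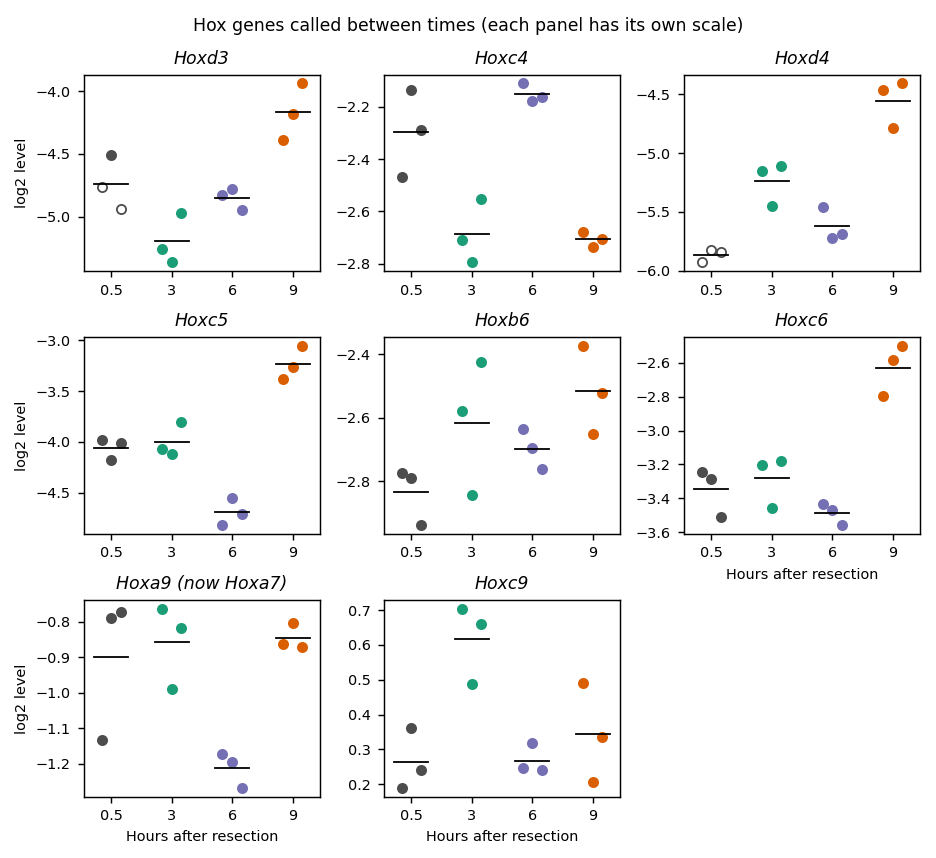
Levels (log2, relative to the array's 75th percentile) of 8 Hox genes called in at least 1 comparison, on each array against hours after resection. Open points are not well above background and bars are group means. Hoxd3, Hoxd4, Hoxc5 and Hoxc6 are highest at 9 h, while Hoxc4 is low at 3 and 9 h.

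At 3 h fewer Hox genes differed from 0.5 h. Of 22, 2 were called higher (Hoxc9 and Hoxd4) and 1 lower (Hoxc4), which is 13.6%, against 22.7% of all genes (9.69% higher and 13% lower). With quantile scaling the counts were 4 higher and 1 lower. Arrays without overlap were seen in 9 Hox genes (40.9%), against 40.7% of all genes. Hoxc9, which marks the thoracic level, gave 0.19, 0.36 and 0.24 at 0.5 h, 0.70, 0.49 and 0.66 at 3 h, 0.25, 0.32 and 0.24 at 6 h, and 0.49, 0.21 and 0.34 at 9 h. Its 3 h arrays stood above those of 0.5 and 6 h, by 0.35 against 0.5 h (SE 0.09, limma adjusted p = 0.0187). Its paralogue Hoxd9 differed by -0.17 (SE 0.14, adjusted p = 0.415). Hoxd4 was called higher (adjusted p = 0.00634), but at a level below what 0.5 h arrays detect, and its sign turned under normexp background correction.

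At 6 h only Hoxc5 was called against 0.5 h, and it was lower. This is 4.55% of the 22 Hox genes, against 13.4% of all genes (4.07% higher and 9.31% lower). Cyclic loess scaling gave 3 higher and 1 lower. The arrays did not overlap in 8 Hox genes (36.4%), against 37.1% of all genes. The next smallest p-values were those of Hoxa9 (now Hoxa7), with a difference of -0.31 (95% interval -0.53 to -0.09, limma adjusted p = 0.0671), Hoxa4, with -0.21 (adjusted p = 0.0767), and Hoxd1, with 0.26 (95% interval 0.06 to 0.45, adjusted p = 0.0794). None of the 3 passed the threshold. The count of called Hox genes was 2 without 0.5 h replicate 1 and 2 without 9 h replicate 2.

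**Figure D4:**
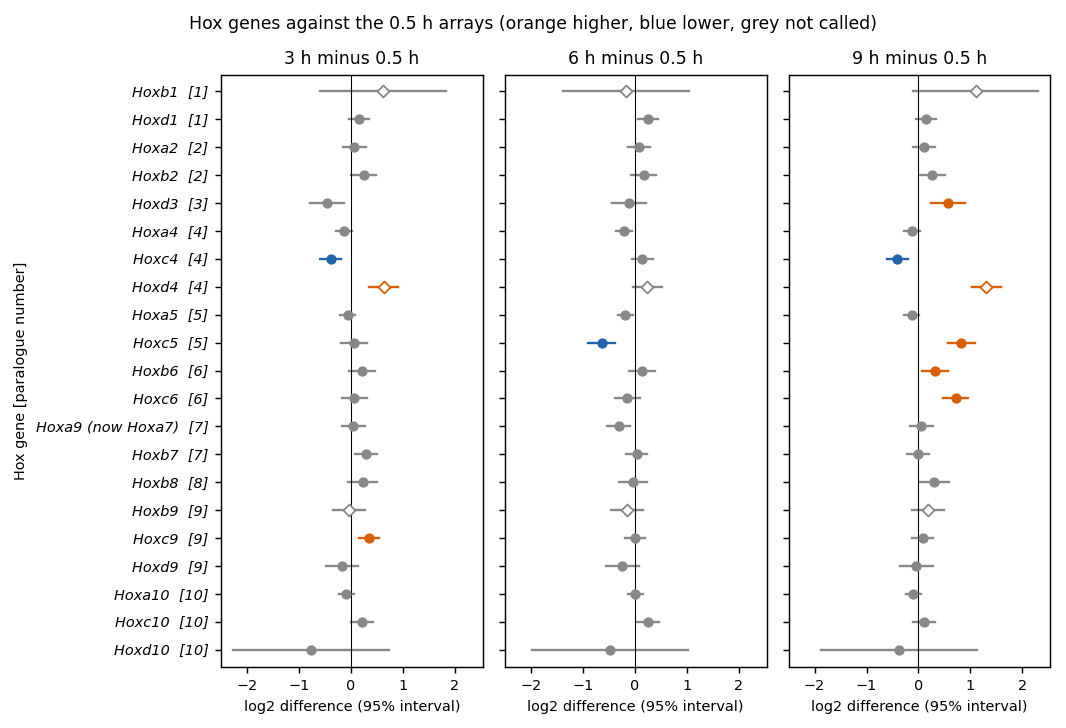
Difference in log2 level from 0.5 h (point) with its 95% interval (line) for 21 of the tested Hox genes, ordered by paralogue number, at 3, 6 and 9 h. Orange genes were called higher, blue genes lower and grey genes not called, and open diamonds mark genes that were dim on the whole 0.5 h group. Most intervals cover 0 at 3 and 6 h, and at 9 h 5 genes with numbers 3 to 6 are orange.

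Between 3 and 6 h, times scanned on the same day but on different slides, Hoxc4 was called higher and Hoxc5 and Hoxc9 lower. The 3 calls make 13.6% of the Hox genes, against 10.4% of all genes (5.93% higher and 4.45% lower). Median scaling gave 1 higher and 1 lower. Hoxc5 fell by 0.69 (SE 0.12, limma adjusted p = 0.00456) and Hoxc9 by 0.35 (SE 0.09, adjusted p = 0.0338). The arrays did not overlap in 8 Hox genes (36.4%), against 35% of all genes. The count of called Hox genes was 5 without 0.5 h replicate 1 and 5 without 3 h replicate 2.

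Between 6 and 9 h 6 Hox genes were called higher and 1 lower, 31.8% of the Hox genes, against 25.1% of all genes (19.2% higher and 5.93% lower). Non-overlapping arrays were found in 9 Hox genes (40.9%), against 44.3% of all genes. Those called higher included Hoxd3, Hoxd4, Hoxc5, Hoxc6 and Hoxa9 (now Hoxa7), and Hoxc4 was called lower. With median scaling 5 were higher and 4 lower. Hoxa9 (now Hoxa7) gave -1.17, -1.19 and -1.27 at 6 h and -0.86, -0.80 and -0.87 at 9 h, a rise of 0.37 (SE 0.10, limma adjusted p = 0.0226) that was 0.16 with median scaling, where the call ended (adjusted p = 0.299). The differences of this comparison do not use the 0.5 h arrays, which enter the fit only through the estimated spread. In Hoxd3, Hoxd4, Hoxc5 and Hoxc6 every 9 h array lay above all arrays of the earlier times. Hoxb6 and Hoxa9 (now Hoxa7) also had their highest mean at 9 h, but with overlap.

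A probe named only by a transcript number lies at chr7:141754654-141754713, between Hoxc9 and Hoxc6. The gene table places Hoxc8 in that interval but does not tie the probe to it. The probe was looked at after the values of its neighbours had been seen. Its mean levels were -1.83 ± 0.16 at 0.5 h, -2.13 ± 0.15 at 3 h, -2.46 ± 0.13 at 6 h and -1.61 ± 0.15 at 9 h (SD, n = 3). It fell by 0.62 at 6 h against 0.5 h (SE 0.12, limma adjusted p = 0.0102) and rose by 0.84 from 6 to 9 h (SE 0.12, adjusted p = 0.000553). Hoxc5 was called in the same directions there. Unlike Hoxc5, this probe was not called at 9 h against 0.5 h (0.22, SE 0.12, adjusted p = 0.173). Nor was it called at 6 h against 3 h (-0.32, SE 0.12, adjusted p = 0.114). The probe of Hoxa3 (RGD1561431), dim on all 0.5 h arrays, showed 0.016 between 6 and 9 h (SE 0.15, adjusted p = 0.952). From that dim start it was called higher at 3, 6 and 9 h than at 0.5 h (limma adjusted p = 0.0332, 0.0232 and 0.00891). It could pass the filter only through the later times, and no bound is given. Its later means (-5.05, -4.93 and -4.91) lay below the detection limits of 0.5 h replicates 1 and 3 (-4.75 and -4.71). They lay above that of replicate 2 (-5.07). So these calls rest on levels that most 0.5 h arrays could not detect. The present Hoxa9 (Hoxa9l) had the tightest replicates of all fully detected Hox probes, with a pooled SD of 0.0541, and was not called (F test, adjusted p = 0.0871).

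Over the 4 times together 8 of 22 Hox genes were called by the limma F test (36.4%), against 43.6% of all genes. They included, in order of p, Hoxc5, Hoxd4, Hoxc6, Hoxc4, Hoxd3, Hoxc9 and Hoxa9 (now Hoxa7). By position along the cluster, 4 of 9 anterior, 4 of 10 middle and 0 of 3 posterior genes tested were called (limma, and 0 of 3 posterior genes also at an unadjusted p under 0.05). Of all 22 genes 13 were never called in any comparison of times. With each fully detected gene centred on its own mean, the medians of the anterior, middle and posterior sets stayed between -0.12 and 0.18, -0.29 and 0.16, and -0.17 and 0.16 on all arrays. The middle set was below 0 on every 6 h array (-0.29 to -0.09) and above 0 on every 9 h array (0.01 to 0.14). All genes shifted the same way from 6 to 9 h, by a median of 0.11, and from -0.10 to 0.18 under the other settings. Whether the middle set differs from that shift was not tested.

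Genes with a second probe showed how far single probes can be read. Hoxa5, Hoxa10 and Hoxd1 have 2 probes each, and in 8 of 15 comparisons the pair differed in sign. At 3 h against 0.5 h Hoxa5 differed by -0.06 (SE 0.07) on its brighter probe and by 0.23 (SE 0.09) on the other, and Hoxa10 by -0.09 (SE 0.06) and 0.24 (SE 0.12). None of the 30 values was called (limma adjusted p from 0.0784 upwards).

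Several position genes of other regions, from a list chosen with earlier results known, were called higher at 9 h. Of 10 measured genes of forebrain, midbrain and limb, 7 were called higher and 1 lower against 0.5 h, with a median difference of 0.83, beside 22.7% and 10.7% of all genes and a median of 0.10. Most of those called higher were dim on the whole 0.5 h group, and such genes could enter the test only through a later time. Otx2, a forebrain and midbrain factor, was at least 1.71-fold higher by the detection limit of each 0.5 h array (limma adjusted p = 0.000533 on the measured values) and 1.55-fold by the common floor (adjusted p = 0.00149), while Irx3 and Six3 were called higher without a usable bound (adjusted p = 0.000453 and 0.0192). Tbx5, which marks the forelimb and was named after its values were seen, was at least 1.40-fold higher by the limit of each array (adjusted p = 0.0145). With the common floor this was 1.28-fold and the call ended (adjusted p = 0.123), as it did with quantile and cyclic loess scaling, capped normexp, the mean of the kept probes and only the 2 times (adjusted p from 0.0642 to 0.2). Tbx4, a hindlimb marker, fell by 0.88 (SE 0.27, adjusted p = 0.0295). The direction of Tbx4 turned with the mean of its kept probes (0.05, adjusted p = 0.836) and with normexp (0.12, adjusted p = 0.89), and its call ended with only the 2 times (adjusted p = 0.0794). It also ended without 0.5 h replicate 1 or 3 or 9 h replicate 1 or 2. The calls of Irx3 and Six3 ended with the common floor and with capped normexp, and that of Six3 also with quantile scaling, with only the 2 times and without 0.5 h replicate 2 or 3 or 9 h replicate 3. The count called over the list was 5 without 9 h replicate 2 and 5 without 9 h replicate 3. It was 4 with normexp and a capped local background, 3 with a common detection floor and 2 among probes well above background on all 12 arrays. Of 9 measured spinal cord markers 3 were called higher at 9 h against 0.5 h, beside 22.7% of all genes. Among genes not well above background on all 12 arrays the share was 39.5%. Their mean, centred, was -0.45 to -0.21 at 0.5 h, -0.39 to -0.10 at 6 h and 0.27 to 0.51 at 9 h, and -0.28 to 0.81 at 3 h. Aqp4, Mobp and Pax2 were well above background on all 12 arrays, and none of the 9 was dim on every array. Of 5 endothelial markers, 4 of them well above background on all 12 arrays, 2 were called higher at 9 h, beside the same 22.7%. Their centred mean was -0.20 to 0.05 at 0.5 h, -0.08 to 0.03 at 3 h, -0.26 to -0.06 at 6 h and 0.11 to 0.42 at 9 h. Sensory neuron markers averaged -0.06 to 0.09, -0.04 to 0.11, -0.15 to -0.03 and -0.03 to 0.07 at these times. Schwann and satellite glia markers averaged 0.09 to 0.11, -0.17 to -0.05, -0.07 to -0.04 and 0.03 to 0.09. The part of these cells in the Hox differences was not tested.

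Among partners of Hox proteins, of 7 measured cofactors 3 were called higher at 9 h against 0.5 h and none lower, beside 22.7% and 10.7% of all genes: Meis3 by 0.37 (SE 0.10, limma adjusted p = 0.0188), Pbx4 by 0.29 (SE 0.08, adjusted p = 0.0256) and Pknox1 by 0.32 (SE 0.09, adjusted p = 0.0272). With median scaling 0 cofactors were called and with quantile scaling 1. Leaving out 0.5 h replicate 1 or replicate 2 gave 1 call each, leaving out 3 h replicate 3 gave 5, and leaving out 9 h replicate 3 gave 0. The call of Pbx4 also ended without 0.5 h replicate 3 or 9 h replicate 1, and that of Pknox1 without 9 h replicate 1 and with the replicate number as a block (adjusted p = 0.0541). At 3 h and 6 h against 0.5 h limma called 0 cofactors, with 2 and 0 at an unadjusted p under 0.05. Of 18 Polycomb and trithorax genes 4 were called higher and 3 lower at 9 h, with a median difference of 0.03 (33.4% of all genes were called, with a median of 0.10). Cbx2, a Polycomb reader of histone marks, rose by 1.24 (SE 0.17, adjusted p = 0.000674) and Ring1, a core ubiquitin ligase subunit, by 0.35 (SE 0.07, adjusted p = 0.00455). Rnf2, the other such ligase subunit, and Bmi1, its partner, fell by 0.28 (SE 0.07, adjusted p = 0.0182) and by 0.29 (SE 0.08, adjusted p = 0.0196), and the histone methyltransferase gene Ash1l fell by 0.47 (SE 0.09, adjusted p = 0.00338). The call of Bmi1 ended without 0.5 h replicate 2 or 9 h replicate 1 or 2, and that of Rnf2 without 0.5 h replicate 1 or 9 h replicate 3, with the mean of its kept probes (-0.20, adjusted p = 0.503) and among probes seen on all 12 arrays (-0.11, adjusted p = 0.26).

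Of 12 measured genes that act upstream of Hox expression in the embryo, 2 were called higher and 3 lower at 9 h against 0.5 h, again beside 33.4% of all genes. Cyp26a1, which breaks down retinoic acid, rose by 0.90 (SE 0.15, limma adjusted p = 0.002) and Cdx4, an activator of trunk Hox genes, was called higher from a dim start without a usable bound (adjusted p = 0.000148), a call that the common floor ended. Egr2, a hindbrain and Schwann cell factor, fell by 1.32 (SE 0.23, adjusted p = 0.00219). Among 13 measured genes that flank the Hox clusters 2 were called higher and 2 lower, a share near that of all genes. Cbx1 and Snx11, both on the side of the HoxB cluster, moved in opposite directions, by -0.54 (SE 0.09, adjusted p = 0.00143) and 0.35 (SE 0.06, adjusted p = 0.00281). The flanking genes therefore did not follow a single direction.

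The calls depend on the background correction and on single arrays. Under normexp correction of the raw signals limma called 0 of 22 Hox genes in every comparison, with 0 to 2 at an unadjusted p under 0.05. On 6 h replicate 3 and 9 h replicate 1 single spots had a local background of up to 16011 and 26874 units, and the 10th percentile of all levels stood at -2.18 and -1.78 on them, against -4.90 to -4.02 on the other arrays. With the local background capped at each array's 99th percentile, a choice made after seeing the data, 4 Hox genes were called between 0.5 and 9 h. Several calls also ended when 1 array was left out. That of Hoxc9 at 3 h ended without 0.5 h replicate 1 or 3 and without 3 h replicate 1 or 3 (limma adjusted p from 0.0533 to 0.069). Its call between 3 and 6 h ended without those same 3 h arrays or any 6 h array (0.0652 to 0.121). Hoxd3 lost its call between 0.5 and 9 h without the last replicate of either time (0.0559 and 0.0547). Hoxa9 (now Hoxa7) lost its own without replicate 2 or 3 of 6 h or of 9 h (0.0506 to 0.0801). Hoxb6 kept its call only when the array left out was 3 h replicate 2, 3 h replicate 3 or 9 h replicate 2 (otherwise 0.0626 to 0.146). The calls of Hoxc4, Hoxc5, Hoxc6 and Hoxd4 held when any 1 array was left out.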

How the data were processed

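Ganglion RNA was amplified, labelled with Cy3 and hybridised to 12 one-colour Agilent arrays, per the labels' protocols. The deposited scanner files hold intensities from Agilent Feature Extraction 10.5.1.1, per the file headers: the authors' processed signal is background-subtracted and not scaled between arrays. The series' value table held the same values (largest difference 0). Its values were not used again.

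From these intensities log2 levels were computed relative to each array's 75th percentile over all spots other than controls. Between 76 and 218 outlier spots an array were left out, among them that of Hoxb9 on 0.5 h replicate 1, so its fit used 2 arrays there. No spot was saturated. Spots of a probe were averaged. A probe was kept if every array of some time had it well above background (34837 of 41012), and the brightest kept probe stood for each gene. Limma 3.58.1 in R 4.3.3 was fitted over all 12 arrays for 5 comparisons of times and an F test, with Benjamini-Hochberg adjustment over all 29623 genes and a threshold of 0.05. Scripts were tested on simulated data. Array number limits the precision. For "at least" folds each array of the dim group was given its detection limit, the lowest signal well above background, or the measured signal if higher.

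The members and lists were chosen with earlier results of these data known. Some items are not reported here by name and stay in the counts. Values of each array are given for members called in any test, for paralogues 10 to 13 and for members whose 2 probes went opposite ways, and of each list at most 6 called genes by smallest p are named. Alternatives were normexp correction with and without a cap on the local background, quantile, median and cyclic loess scaling, other filters and probe rules, a detection floor, a trended and robust fit, only 2 times, replicate or slide as a block, and leaving out each array. Same-numbered arrays deviated together in 3 of 18 pairs (r over 0.1), so replicate numbers were not taken as pairs.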

Additional observations from a re-analysis of the deposited data

Results flagged for a closer look

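Inside the spans of the Hox clusters the array holds 18 further probes whose names do not follow the Hox pattern, 7 of them well above background on all 12 arrays and 4 on none. Of these, 5 that are tied to no gene name gave signals above background on every array and are listed because they lie outside the comparisons above. They were chosen after their values were seen. AW915396, on the minus strand between Hoxd9 and Hoxd4 and so opposite to the HoxD genes, had a mean processed signal of 13192 over the 12 arrays. BF557905, between Hoxa9 (now Hoxa7) and the probe of the present Hoxa9 (Hoxa9l), had a mean of 4608. TC597848, on the minus strand between Hoxc10 and Hoxc9, had a mean of 2585 and rose by 0.28 at 9 h against 0.5 h (SE 0.08, limma adjusted p = 0.0256). CN542018, between the Hoxa3 probe and Hoxa4, had a mean of 1531 and fell by 0.74 at 3 h (SE 0.21, limma adjusted p = 0.0328). ENSRNOT00000031404, the probe between Hoxc9 and Hoxc6 described above, had a mean of 500.4. Which transcripts these probes measure was not tested.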

How the results depend on the processing

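The count of 16 Hox genes well above background on all 12 arrays cannot fall when an array is left out. No member was seen on exactly 11 arrays, so it could not rise either, and its staying at 16 tests nothing. Hoxc5 lay at -4.82 on 6 h replicate 1, under the common detection floor of -4.71. Counts of called Hox genes did move. At 3 h against 0.5 h the main count of 3 became 0 with normexp, 5 with capped normexp, 5 with quantile and 6 with cyclic loess scaling, 10 of 28 with no filter, 1 with only the 2 times and 11 with slide as a random block. At 6 h against 0.5 h the count of 1 became 0, 2, 2 and 4 under the first 4 of these, 3 with median scaling, 6 with no filter and 6 with slide. At 9 h against 0.5 h the count of 7 became 0 with normexp, 4 with capped normexp, 4 with probes seen on all 12 arrays, 4 with a detection floor and 13 with slide. At 6 h against 3 h the count of 3 became 0 with normexp and 7 with slide. At 9 h against 6 h the count of 7 became 0 with normexp and 4 with probes seen on all 12 arrays. Over the 4 times the count of 8 became 0 with normexp, 13 with no filter and 17 with slide. The slide correlation was estimated at -0.255, below 0. Leaving out single arrays gave 2 to 4, 1 to 2, 5 to 9, 2 to 5, 6 to 8 and 6 to 10 in the same order. The cap was added after the data were seen.

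Reversed values came from normexp: Hoxd4 at 3 h against 0.5 h (-0.10, and -0.12 with the cap), Hoxc4 at 9 h against 0.5 h (0.046) and Hoxc5 at 6 h against 3 h (0.20). Why they turned was not tested. Of 252 leave-one-out values of the 21 called differences 228 kept their call, 24 lost it and 0 reversed. Of 266 values under the other settings 218 kept it, 44 lost it and 4 reversed. A common detection floor left Hoxd4 at 0.18 at 9 h against 0.5 h (limma adjusted p = 0.068), since the 0.5 h arrays limit what dim genes can show.

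With the replicate number as a block the counts were 3, 1, 6, 2, 7 and 6, and limma's calls of Hoxb6 at 9 h against 0.5 h (adjusted p = 0.0556) and Hoxc9 at 6 h against 3 h (0.066) ended, as did that of the cofactor Pknox1 at 9 h against 0.5 h (0.0541). Correlations between same-numbered arrays ran from -0.1332 to 0.2231 over 18 pairs, and between arrays of different number and time from -0.2297 to 0.1986 over 36 pairs. No pairing by number was seen in these values, but the labels do not say whether same-numbered arrays share rats.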
